A study of Rattus norvegicus with 11 samples.

Results

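The natriuretic peptide system was described here through 7 genes: the peptide genes Nppa and Nppb, the processing proteases Corin and Furin, and the receptors Npr1, Npr2 and Npr3. They were taken by symbol from the 17257 genes of the authors' deposited table, of which 13346 had a mean above 0, and each symbol matched exactly 1 row. RNA came from ventricular myocytes, the contractile cells of the heart's main pumping chambers, of wild-type Sprague Dawley rats aged 3 to 4 months. Males gave 6 libraries and females 5, which the submitters call biological replicates. All cells were released by Langendorff perfusion, received no treatment, and stayed 45 minutes on culture dishes before freezing. The preparation is therefore of isolated cells shortly after plating and not of intact ventricle. The design asks whether male and female myocytes differ in gene expression.

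Nppa and Nppb encode the precursors of atrial and B-type natriuretic peptide, hormones that heart muscle releases when it is stretched and that promote salt excretion and relax vessels. In the healthy adult heart Nppa is mainly an atrial gene, and its ventricular level is a widely used sign of load or hypertrophy. Corin, a membrane protease of heart muscle, cuts the Nppa precursor into active hormone, and furin, a protease of the secretory pathway, cuts the Nppb precursor. Npr1 and Npr2 are membrane guanylyl cyclases that make cyclic GMP, Npr1 in answer to both cardiac peptides and Npr2 to C-type natriuretic peptide. Npr3 has no cyclase and mainly removes the peptides.

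Of the 7 genes, 2 passed the authors' adjusted p of 0.05, Corin and Npr2, and both were higher in females. There, 14.5% of all tested genes passed it, and 6.71% did so with the higher level in females. Of 7289 genes whose mean was 200 or more, where all 7 genes lie, 23.2% passed. A count of 2 in 7 is thus near the background. The peptide genes, Furin, Npr1 and Npr3 did not pass. The median log2 fold change (female over male) of the 7 genes was 0.21, beside -0.004 over 10519 genes whose mean was 10 or more.

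The deposited columns give means for each sex only. Reads per library were worked back from the digits of those means for 6875 genes, 5 of the 7 included, and libraries are lettered a to f in males and a to e in females in order of falling size factor. The letters are names and carry no replicate number. Over these genes, which are mostly of low and middle level, libraries held from 404621 to 577124 reads in males and from 472007 to 536513 in females. The values below are normalized counts, that is reads divided by the size factor of their library. A bulk measurement of this kind cannot tell fewer cells of a type from less RNA per cell. Transcript lengths were not used here, so levels are compared between libraries and not between genes.

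The stretches just upstream of the annotated starts of both peptide genes are shown, since a list of their known transcription regulators is described below. Each is the 250 bases before the start in RefSeq GRCr8, plus strand, Nppa at chr5:163711934-163712183 and Nppb at chr5:163699758-163700007. Capitals mark GATAA, a core read by GATA factors, and AAGTG, a core read by NK-2 homeodomain factors such as Nkx2-5.
Nppa: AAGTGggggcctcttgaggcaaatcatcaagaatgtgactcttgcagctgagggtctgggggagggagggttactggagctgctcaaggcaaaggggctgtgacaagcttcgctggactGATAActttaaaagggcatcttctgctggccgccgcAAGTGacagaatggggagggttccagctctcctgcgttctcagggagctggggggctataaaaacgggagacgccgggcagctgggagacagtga
Nppb: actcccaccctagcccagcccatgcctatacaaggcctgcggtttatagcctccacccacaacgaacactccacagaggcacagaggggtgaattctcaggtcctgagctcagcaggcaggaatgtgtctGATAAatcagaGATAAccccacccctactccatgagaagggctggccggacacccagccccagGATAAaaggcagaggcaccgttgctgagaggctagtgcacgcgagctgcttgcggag
GATAA occurred 1 time before Nppa and 3 times before Nppb, and AAGTG 2 times before Nppa and 0 times before Nppb, all on the strand of the gene although both strands were searched. Of 33469 promoters in the same table, 23.5% held GATAA and 40.6% held AAGTG in a window of this length. TGANTCA (the AP-1 site), AGGTGT (a T-box core) and the strict CArG box of serum response factor (CCWWWWWWGG, W being A or T) were not found in either window. They were held by 6.34%, 11.6% and 1.5% of all promoters. Only these exact forms were searched, so looser sites, such as a CArG box with a mismatch, were not looked for. None of the motifs searched overlapped another in these windows. The promoter table matched 5 of the 7 genes, not Npr2 and Furin, and the windows before Npr1, Npr3 and Corin held 0 of the 5 motifs.

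Nppa, the gene for atrial natriuretic peptide, varied far more between libraries of the same sex than between the sexes. Its normalized counts in males were lowest at 579, with a median of 1344, and highest at 3833. The 5 females gave 1488, 431, 2441, 1018 and 2174. The male mean was 1660 ± 1123 (SD, n = 6) and the female mean 1510 ± 824 (SD, n = 5), and the ranges overlapped. The log2 fold change was -0.14 (authors' deposited table, adjusted p 0.99 by DESeq). The difference in means gave p = 0.835 in an exact permutation test (two-sided). Male library e stood above all others, and without it the log2 fold change was 0.30 (exact permutation p = 0.5). Female library b was the lowest of all 11, and without it the value was 0.10 (exact permutation p = 0.876). Leaving out either library thus changed the sign of the difference.

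Beyond counting error, the coefficient of variation (CV) of Nppa within a sex was 62.9%. Of 1876 genes with recovered reads whose mean was 100 or more, 1.01% had a CV at least as large, and the median was 22.3%. The receptors and Corin spread less. The CV was 39.2% for Npr3, 30.9% for Npr1, 16.6% for Corin and 11.7% for Npr2, and 94.5% of those genes varied at least as much as Npr2. Most genes in this comparison have means below that of Nppa, as recovery was tried on all genes only up to a mean of 300.

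**Figure D1:**
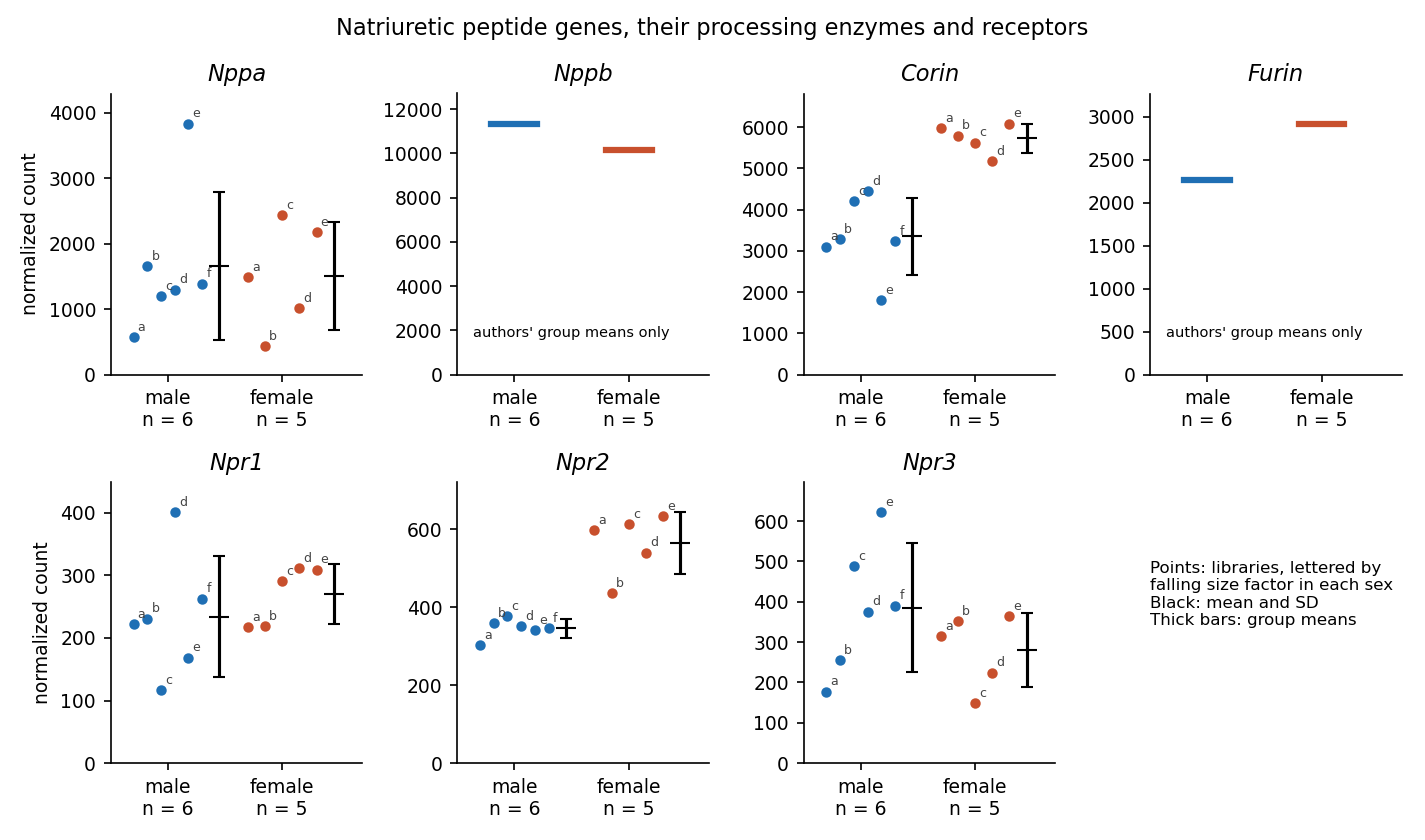
Normalized counts (vertical axes, from 0) of the 7 genes in 6 male and 5 female libraries, each panel with its own scale. Lettered points are libraries, black marks the mean and SD, and thick bars for Nppb and Furin are the authors' group means. The sexes separate in Corin and Npr2, and male library e is the highest point in Nppa at 3833.

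**Figure D2:**
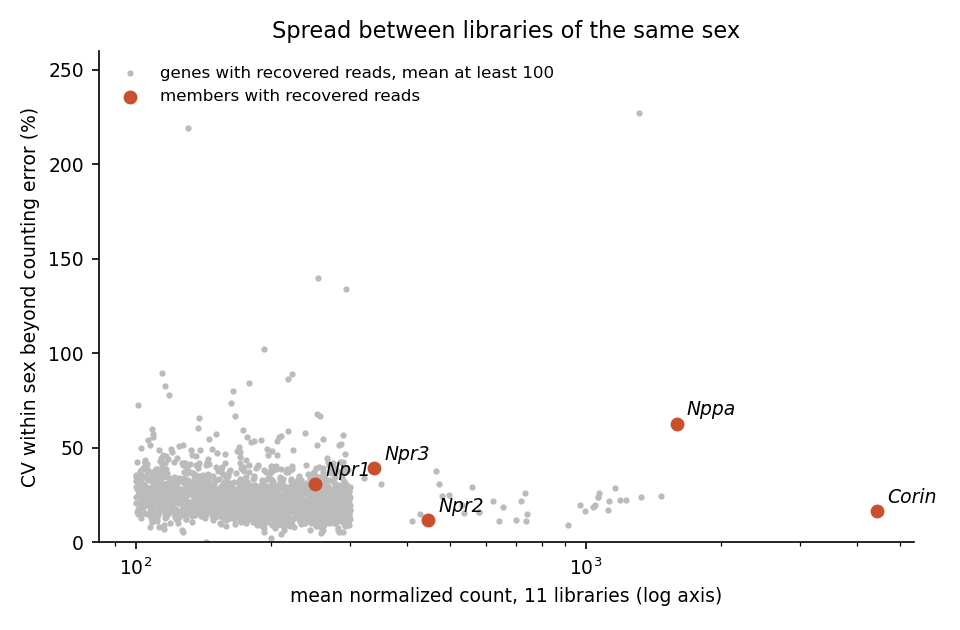
CV within a sex beyond counting error (vertical axis, percent) against the mean normalized count over 11 libraries (horizontal log axis) for 1876 genes with recovered reads, with 5 of the 7 genes in colour. Nppa lies at 62.9%, and Npr2 at 11.7%.

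Nppb, the gene for B-type natriuretic peptide, stood at a mean of 11341 in males and 10147 in females (authors' deposited table). The log2 fold change was -0.16 and the adjusted p 0.70 by DESeq, so no sex difference was called. Its reads per library could not be recovered, because a mean of this size leaves too many possible combinations, and no SD is given. The deposited p-value itself depends on the spread, and it implies a CV of 22.7% beyond counting error, or 16.6% to 28.7% when the read total of each sex is taken 1.5% lower or higher. The authors' fitted curve gives 14.98% at this mean.

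Corin was the member with the smallest p and was higher in every female than in any male. Its normalized counts were 3107, 3288, 4216, 4450, 1809 and 3241 in male libraries a to f. In female libraries a to e they were 5975, 5796, 5626, 5187 and 6087. The means were 3352 ± 939 (SD, n = 6) and 5734 ± 353 (SD, n = 5). The authors' deposited table gives 0.77 as the log2 fold change and, by DESeq, 8.4e-05 as the adjusted p. The exact permutation test (two-sided) gave p = 0.00433, where the smallest p the design allows is 0.00216. In 3.62% of the 1876 recovered genes described above all females lay above all males, and 31.6% had an exact permutation p under 0.05. All but 42 of those genes have means up to 300, below that of Corin. The males varied more than the females, mainly through library e at 1809, the library that was highest in Nppa. Without it the log2 fold change was 0.65, the lowest value on leaving out any 1 library.

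Furin averaged 2258 in males and 2918 in females, and its log2 fold change was 0.37 (authors' deposited table). Its adjusted p was 0.072 by DESeq, which does not pass the threshold of 0.05 but would pass one of 0.10, as 20.5% of all genes do. For this gene 165 sets of whole reads matched the deposited values, the p-value within a relative 1e-12, so its level in single libraries is not given. In 32 of those sets the sexes did not overlap and in the others they did, so whether they overlap is not known.

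Npr2, the receptor for C-type natriuretic peptide, was the other gene that differed. The males lay close together at 303, 358, 377, 352, 342 and 346. The females lay higher and wider at 597, 435, 613, 540 and 634. The lowest female exceeded the highest male, an order seen in 3.62% of the 1876 recovered genes, most of lower level. The means were 347 ± 24.4 (SD, n = 6) and 564 ± 79.9 (SD, n = 5), and the log2 fold change of 0.70 came with an adjusted p of 0.0026 by DESeq (authors' deposited table). The exact permutation test (two-sided) gave p = 0.00216, the smallest it can give here, and 31.6% of those genes had one under 0.05. Nppc, the gene of its ligand, averaged 1.28 in males and 0.176 in females and is not interpreted at that level.

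Npr1, the receptor for both cardiac peptides, did not differ between the sexes beyond its spread. The counts were 222, 231, 117, 401, 168 and 263 in males and 217, 219, 291, 312 and 309 in females. The means were 234 ± 96.7 (SD, n = 6) and 269 ± 47.7 (SD, n = 5), and the log2 fold change was 0.21 (authors' deposited table, adjusted p 0.74 by DESeq). All 5 females lay inside the male range. Male library d, the highest for Npr1 at 401, had the highest male sum of the 4 endothelial markers with recovered reads (3529) and of the 6 mural markers (4123), and was the highest male in 3 of each. Male library c, the lowest for Npr1 at 117, had the lowest male sums, 1814 and 2270, and was the lowest male in 2 of the 4 endothelial and 4 of the 6 mural markers. Over the 5 fibroblast markers with recovered reads, library c again had the lowest male sum (1120), while 4 males exceeded library d (1572). These sums leave out the markers of highest mean in each list, such as Pecam1, Abcc9 and Col3a1, whose reads were not recovered. They therefore do not rank the libraries by cell content. The part of endothelial, mural or fibroblast cells in the Npr1 values was not tested.

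Npr3, the clearance receptor, had counts of 177, 255, 489, 376, 622 and 391 in males and 314, 353, 149, 224 and 364 in females. The means were 385 ± 160 (SD, n = 6) and 281 ± 92.0 (SD, n = 5). The log2 fold change was -0.45 (authors' deposited table, adjusted p 0.55 by DESeq), and the ranges overlapped. The lowest of all libraries was a female and the highest was male library e.

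Markers of other cells were read beside these values. The background for their counts is 14.5% of all genes tested called by DESeq, and 23.2% of those whose mean was 200 or more. All 5 ventricular markers were present, Myl2 at 269658 and 269956 in males and females, and 0 of 5 were called between the sexes by DESeq, 0 had an unadjusted p under 0.05, and limma called 0 of 2, against 6.86% of the 4054 recovered genes it tested. Of the general myocyte markers 6 were tested and 2 were called higher in females, Myh6 (log2 fold change 0.68, adjusted p 0.00012 by DESeq) and Ryr2 (log2 fold change 0.37, adjusted p 0.049). The part of this in the Corin and Npr2 differences was not tested. Of 9 endothelial and endocardial markers, Vwf and Egfl7 were called higher in females and Emcn lower, and the summed group means were 19680 in males and 19673 in females. Of 8 fibroblast markers, 7 were tested, 1 was listed at 0 (Col1a2) and 3 were called lower in females. The summed fibroblast means were 18075 in males and 8968 in females, with Col3a1 the largest part in males, and its log2 fold change was -1.45 (adjusted p 1.2e-05 by DESeq). Over the 5 fibroblast markers with recovered reads the sums ran from 1120 to 2219 in males and from 626 to 1483 in females. Over the 4 endothelial markers with recovered reads they ran from 1814 to 3529 in males and from 2695 to 3534 in females. The sums per library leave out the markers of highest mean, such as Col3a1 and Pecam1, whose reads were not recovered. DESeq called 0 of the 8 mural and 0 of the 8 immune markers, 2 and 0 of them had an unadjusted p under 0.05, and limma called 0 of 6 and 0 of 7. They had summed means of 13712 and 14691 for mural cells and 963 and 787 for immune cells in males and females. Npr3 and Npr1 are also made by endocardial, vascular and stromal cells. The part of such cells in the level of any receptor, or in the Npr2 difference, was not tested.

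Atrial markers were read beside Nppa, and their part in its spread was not tested. Of the 8 atrial markers, Stard10 was called higher in females (log2 fold change 0.79, adjusted p 0.00048 by DESeq) and the other 7 were not called. Myl7, the atrial myosin light chain, had 315, 339, 131, 440, 48 and 449 normalized counts in males and 450, 176, 923, 658 and 10531 in females. Female library e thus stood far above the others, of which the next had 923, while its Nppa count of 2174 lay inside the range of the other libraries. Male library e, the highest for Nppa, was the lowest for Myl7. Bmp10, a secreted factor of atrial myocytes, was at 0 in all 6 males and in 4 of 5 females, and Sln, a calcium pump regulator of atrial cells, was between 0 and 12.3 in all libraries. Over the 7 atrial markers with recovered reads the sums ran from 622 to 1179 in males and from 1062 to 11469 in females.

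**Figure D3:**
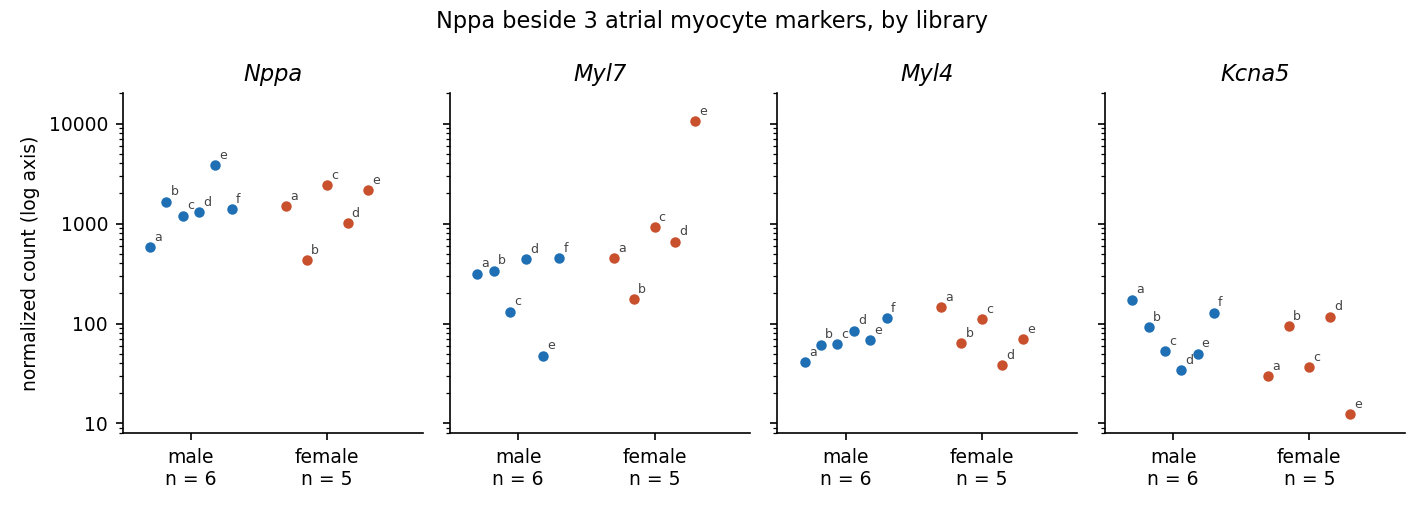
Normalized counts (log axis, shared by the panels) of Nppa and of the atrial markers Myl7, Myl4 and Kcna5 in 6 male and 5 female libraries, one lettered point per library. Female library e is the highest in Myl7 at 10531, and male library e, the highest in Nppa at 3833, is the lowest in Myl7 at 48.

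Around the 7 genes, 116 other genes of the pathway had been listed, of which 107 were tested, and 13 of these were called higher and 8 lower in females. That is 19.6% called, beside 14.5% of all genes tested and 23.2% of genes whose mean was 200 or more. The counts of each list below are read beside these shares.

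Of the processing and clearance list, 16 of 17 genes were tested, with 2 called higher, 2 lower and a median log2 fold change of -0.004 over the 12 with a mean of at least 10. Pcsk6, a proprotein convertase known to activate corin itself, averaged 3782 in males and 6387 in females. Its log2 fold change was 0.76 (authors' deposited table, adjusted p 1.8e-05 by DESeq). Ece1, an endothelin-converting metalloprotease, was also higher, with a log2 fold change of 0.54 (adjusted p 0.0050). Dpp4, a peptidase that trims B-type natriuretic peptide, was lower at 563 ± 55.7 (SD, n = 5) in females against 815 ± 105 (SD, n = 6) in males, with no overlap between the sexes, an order seen in 3.09% of the 1876 recovered genes, most of lower level. Galnt1, which starts O-glycosylation of secreted proteins, was lower as well, with a log2 fold change of -0.68 (adjusted p 0.022). Mme, the gene of neprilysin, which degrades the peptides, had means of 21.0 and 19.7 and was not called.

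Cyclic GMP genes were mostly not called, as holds for all genes tested, of which 14.5% passed. In the synthesis list 1 of 10 tested genes passed, Nos3, the endothelial nitric oxide synthase, higher in females, with a log2 fold change of 0.56 (adjusted p 0.036 by DESeq). Its male libraries were lowest at 462, with library d highest at 883, and the females ran from 584 to 990. In the list of effectors and breakdown 2 of 22 tested genes passed, both lower in females. Ppp1r12a, the targeting subunit of myosin phosphatase, had a log2 fold change of -0.47 (adjusted p 0.029), and Pde11a, a phosphodiesterase, one of -2.11 (adjusted p 0.0039) from means of 41.1 and 9.51. The medians of the lists were -0.04 and -0.22 over genes with a mean of at least 10.

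Of 4 inhibitory G protein alpha subunits, the proteins to which Npr3 is reported to couple, 2 were lower in females. Gnai3 averaged 1539 in males and 713 in females, with a log2 fold change of -1.11 (adjusted p 0.0017 by DESeq). Gnai1 gave 127, 138, 226, 144, 117 and 143 in males and 92, 85, 31, 66 and 112 in females, with no overlap and a log2 fold change of -0.95 (adjusted p 0.0088). All females lay below all males in 3.09% of the 1876 recovered genes. Gnai2, the most abundant by count, had a log2 fold change of -0.03 and was not called (adjusted p 0.94).

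Known transcription regulators of Nppa and Nppb form the longest list. Of its 30 tested genes 10 were higher and 1 was lower in females, and the list median was 0.29. The background is 6.71% of all genes higher and 7.76% lower. Most of the list has a mean of 200 or more, where 23.2% of genes passed in either direction. The share higher in females at that level was not computed. The list, as all lists, was chosen with earlier results of these data known. Mef2d, a muscle transcription factor, had a log2 fold change of 0.73 (adjusted p 8.4e-05 by DESeq), and Hdac5, a histone deacetylase that restrains it, one of 0.64 (adjusted p 0.00059). Tbx5, a T-box factor of the heart, had a log2 fold change of 0.64 (adjusted p 0.00094). Nkx2-5, a homeodomain factor of the heart, averaged 353 and 668, with a log2 fold change of 0.92 (adjusted p 0.0022). Fos, the AP-1 factor with the highest mean of the list, averaged 19955 and 29061 (adjusted p 0.0026). Chosen after their values were seen, Gata4 had a log2 fold change of 0.57 (adjusted p 0.0023), and Hopx, a repressor of serum response factor, was the gene lower in females at -0.91 (adjusted p 0.0024). Nppa and Nppb themselves, whose windows are printed above, had log2 fold changes of -0.14 and -0.16.

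Of the 11 tested genes of load and hypertrophy, 0 were called by DESeq, 2 had an unadjusted p under 0.05, and limma called 0 of the 3 it could test. Their median log2 fold change was -0.26 over 10 genes with a mean of at least 10. Myh7, the slow myosin heavy chain and the gene with the highest mean of the list, had means of 111334 and 95347 and an adjusted p of 0.82. In the list of granules and secretion 1 of 14 tested genes passed, Snap23, a membrane fusion protein, lower in females by a log2 fold change of -0.62 (adjusted p 0.0076). Pam, an enzyme abundant in atrial granules and the highest by count, had means of 37396 and 34225 and was not called (adjusted p 0.61).

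**Figure D4:**
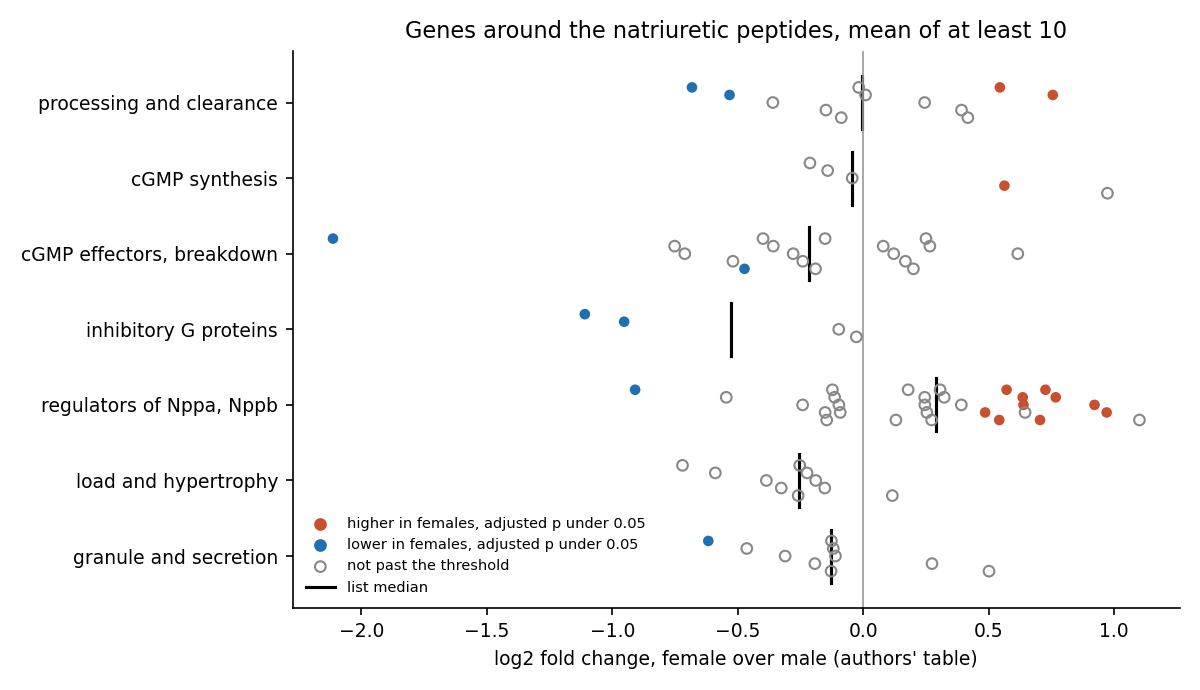
Log2 fold change, female over male, from the authors' deposited table (horizontal axis) of each gene with a mean of at least 10 in the 7 pathway lists (rows). Filled points passed an adjusted p of 0.05, higher or lower in females, open points did not, and black lines are list medians. The regulators of Nppa and Nppb, the longest list, hold 10 of the 13 genes called higher. All lists were chosen with earlier results of these data known.

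Nppb and Nppa lie side by side on chromosome 5, and 4 of their RefSeq neighbours were measured. Clcn6, next to Nppa, gave 199, 281, 196, 197, 183 and 235 in males and 381, 301, 360, 359 and 391 in females. All females exceeded all males, an order seen in 3.62% of the 1876 recovered genes. The log2 fold change of Clcn6, 0.73, had an adjusted p of 0.0060 by DESeq. On the far side, Mfn2, a mitochondrial fusion protein, was higher with a log2 fold change of 0.50 (adjusted p 0.0061). Plod1 and 2510039O18Rikl lie between Mfn2 and Nppb, had log2 fold changes of 0.35 and 0.18, and were not called. Among the 6 genes in this order the peptide genes had the negative values. Whether reads were counted by strand is not known here, so reads of neighbouring or antisense transcripts at this locus cannot be told apart.

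**Figure D5:**
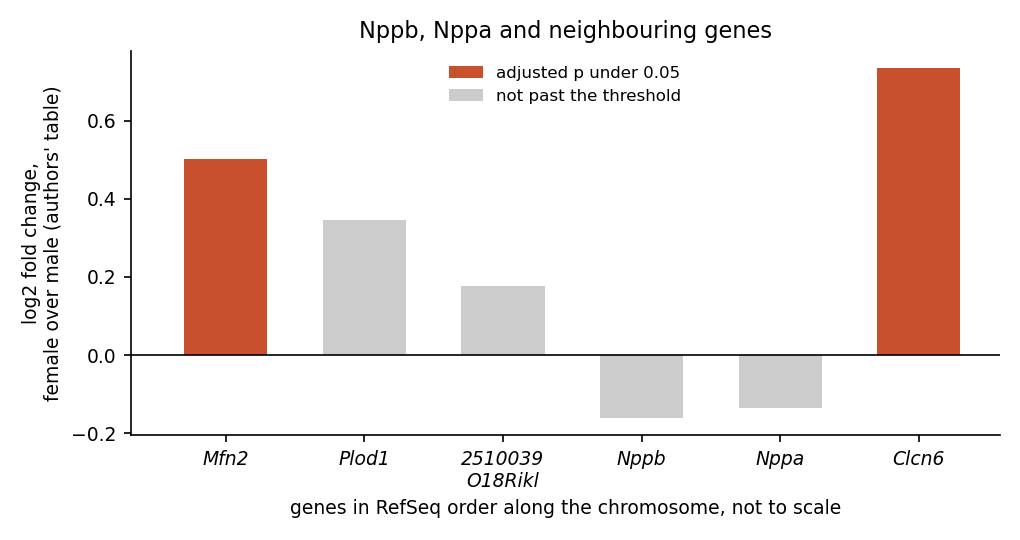
Log2 fold change, female over male, from the authors' deposited table (vertical axis) for Nppb, Nppa and 4 neighbours in RefSeq order, not to scale. Coloured bars passed an adjusted p of 0.05. Mfn2 and Clcn6 stand at 0.50 and 0.73, and both peptide genes lie below 0.

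The genes most like each member over the 11 libraries were taken by Pearson r of log2(normalized count + 1) among 3512 other genes with recovered reads and a mean of at least 20. These are descriptions of shared libraries, in which sex, depth and cell make-up also vary together. Nppa was most like Sdad1 (r 0.84), Med11 (r 0.74) and Znrd1 (r 0.73), lower values than for the other 4 genes with recovered reads. Npr1 was most like Ppp1r18 (r 0.94), Xpnpep2 (r 0.92) and Fes (r 0.92). Npr2 was most like Hsf4 (r 0.93), then Clcn6 of the peptide locus (r 0.91) and Scamp4 (r 0.91), and all of these were called higher in females. Npr3 was most like Apitd1 (r 0.91), Pde7a (r 0.90) and LOC500077 (r 0.89). Corin was most like Dmtn (r 0.96), Arhgef15 (r 0.93) and Spata5l1 (r 0.91), of which Dmtn was called.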

How the data were processed

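Stranded paired-end libraries were made from 650 ng of total RNA (integrity number 9 or more) after ribosomal RNA depletion, per the labels' protocols. The authors used DESeq, HTSeq 0.6.1, TopHat2 2.0.12, Trimmomatic 0.32 and FastQC with rn6, per the submitters' processing notes, which give no settings. In the sources used here the strand setting is not given. The authors deposited mean normalized signal (counts over size factors) for all libraries and for groups A and B. They also deposited the fold change as a linear ratio, its log2 value, and a p-value with its adjusted value. A is read as the 6 males and B as the 5 females, since overall means weight them so, to a relative 8.4e-15.

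The 7 genes and all lists were chosen with earlier results of these data known. Calls are the authors' adjusted p under 0.05, which matched a Benjamini-Hochberg adjustment over 13346 genes. Named genes are the 7 members, up to 4 called genes with the smallest p (mean at least 10) and the gene with the highest mean in each list, 3 neighbours on each side of the peptide locus (the others not analysed here), the 3 genes most like each member, and markers. RefSeq GRCr8 gave names, gene order and promoter windows, and no rn6 coordinates were used.

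Reads per library were recovered after the data were seen. Multiplied by its n, a group mean adds up whole reads, each over a size factor. All whole-read combinations matching the printed digits were enumerated, then kept if they also gave the deposited log2 fold change and p-value of the authors. The p-value had to match within a relative 1e-09, or 1e-12 for the listed genes of highest mean, Nppa, Corin and Furin included. Of 6847 genes with a mean up to 300, 6833 had exactly 1 solution at 1e-09, and listed genes were tried to a mean of 2100, with Corin beyond it. The deposited p was recomputed in R 4.3.3 within a relative 7.63e-13 for all 6842 genes rechecked. In the 1786 genes whose test used their own dispersion the largest difference was 1.58e-14. For Nppa, also such a gene, 1 combination matched to 9.99e-16 and the next to 1.64e-12. For Corin these were 1.24e-14 and 2.9e-09, searched to a dispersion of 0.035. On data simulated from genes with a mean up to 300, true reads came back for 150 of 150 genes. With p shifted by a relative 1e-06, 0 of 300 genes, also of means up to 300, gave a solution. Nppa, Corin, Npr2 and Npr3 lie above that mean, and recovery at their level was not simulated.

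Single genes were compared by exact two-sided permutation over the 462 splits. As an alternative, limma 3.58.1 was run on log2(normalized count + 1) for 4054 recovered genes with a mean of at least 10. In simulation with 200 of these changed, it called 8.5% at 1.5-fold, 52.5% at 2-fold and 85% at 4-fold. Other alternatives were the genes adjusted over, the threshold, 2 scalings, the pseudocount, normalization by library totals and leaving out each library. Arithmetic used Python 3.11.15 with numpy 2.4.6.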

Additional observations from a re-analysis of the deposited data

Results flagged for a closer look

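The highest and lowest libraries of each sex were set against Dixon's 95% critical value (0.625 for 6 libraries, 0.710 for 5). This covered the 5 members with recovered reads and the atrial markers with recovered reads and a mean of at least 10, which leaves out Dkk3. Of 18 groups, 2 held a library past it. Chance flags about 1 in 20 groups if the values are normally distributed. The normalized counts were used without a log, which draws out high values, and their distribution was not tested. The rate of 1 in 20 may therefore not hold here, and whether the 2 libraries would pass on a log scale was not tested. Nppa in male library e, at 3833 normalized counts, stood far above the other males, of which the next had 1661. Myl7 in female library e, at 10531 normalized counts, stood far above the other females, of which the next had 923. No other library of the members was past the critical value. What sets these libraries apart was not tested.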

How the results depend on the processing

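The count of 2 called genes among the 7 stayed at 2 when p-values were adjusted again over genes whose mean was 10 or more, or 50 or more, and was 3 at a threshold of 0.10, where Furin entered. Furin's adjusted p was 0.057 and 0.051 under those adjustments. Among the 5 genes with recovered reads, Corin and Npr2 passed the exact permutation test, and these 2 did so under each alternative run, leaving out each library included, with limma adjusted p of 0.018 for Corin and 0.011 for Npr2. On leaving out each library the log2 fold change ran from 0.65 to 0.87 for Corin, from 0.66 to 0.78 for Npr2, from 0.07 to 0.43 for Npr1, from -0.60 to -0.26 for Npr3 and from -0.38 to 0.30 for Nppa. Nppa changed sign without male library e (0.30), without female library b (0.10) and, in an alternative chosen after seeing the data, without male library e and female library e together (0.13). Its test passed under none of these. Of the pathway genes 21 were called, 21 after adjustment over genes whose mean was 50 or more, and 26 at 0.10. Scaling to the same sum over rows with a gene symbol shifted log2 fold changes by -0.06, and all 7 members and 21 called pathway genes kept their direction. No paired analysis was possible because the recovered libraries carry no replicate number. Nppc, Bmp10 and Sln had few reads, and whether through low depth or low expression was not tested. In simulation limma recovered few 1.5-fold changes, so a gene that did not pass is not shown to be equal in the sexes.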
